A study of Arabidopsis thaliana with 42 samples.

Results

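The KAN1-GR line was compared with wild type before any dexamethasone (DEX) was given. The comparison uses 6 of the 42 arrays of the study: KAN1-GR at 0 min, replicates 1 to 3, and Columbia wild type at 0 min, replicates 4 to 6, which the labels give as grown on the same day (day 2). All were whole Arabidopsis thaliana seedlings, 7 days old, grown in liquid MS medium with sucrose, one flask of 50 seeds in 50 ml per sample, and frozen just before the other flasks received DEX. KAN1-GR carries KANADI1 fused to a domain of the glucocorticoid receptor and driven by the 35S promoter, which is active in most tissues. The wild type carries no transgene. Later flasks of the same day, KAN1-GR and wild type after 30 or 60 min in 50 µM DEX, and GR-REV, a 35S-driven fusion of REVOLUTA set against wild type of day 1, replicates 1 to 3, serve as further comparisons. One line stands for each construct, so effects of the transgene, of where it inserted and of anything else particular to the line cannot be told apart.

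KANADI1 (KAN1) is a GARP-family transcription factor that promotes the abaxial, lower side of leaves, acts in the outer tissues of the stem and root, and is known mainly as a repressor. Class III homeodomain-leucine zipper factors such as REVOLUTA promote the adaxial, upper side, and these groups of genes oppose each other. The receptor domain holds the fusion in the cytoplasm until a steroid such as DEX is bound, so the state before DEX is the baseline from which the response of such a line is measured.

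The array, Affymetrix ATH1, holds 22810 probe sets, of which 16129 were tested. Values are log2, with 0 for each probe set at the median of 6 arrays, the wild type before DEX on both days, so a value compares samples for a gene and says nothing of its absolute level. The precision is set by the number of arrays, and the median standard error (SE) of a difference was 0.15. In whole seedlings, fewer cells of a type and less RNA per cell cannot be told apart. A gene is called here when its adjusted p is under 0.05 in limma (moderated test over all 42 arrays, Benjamini-Hochberg adjustment over all tested probe sets). Every adjusted p given is from that fit.

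Wild-type replicate 6 stood further from the other arrays of its group. The median absolute difference over the tested probe sets was 0.129 between wild-type replicates 4 and 5. It was 0.18 and 0.154 between these and replicate 6, and 0.131 to 0.134 among KAN1-GR replicates. Pearson's r of the centred values was 0.719 to 0.75 among KAN1-GR replicates and 0.352 to 0.613 among wild-type replicates, as a description of arrays that share probes. Centring on wild type takes out what its arrays share, so these r values do not show which group is more alike. Among the wild-type arrays the standard deviation of the centred values was highest in replicate 6, at 0.371 against 0.239 in replicate 4. Of 91 called genes examined one by one, 37 were not called without replicate 6 and 42 were not called with the wild types of both days as reference.

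Before DEX, KAN1-GR differed from wild type in 1730 of the 16129 tested probe sets (10.7%). Of these, 797 (4.94%) were higher in the line and 933 (5.78%) lower, and 389 changed by 2-fold or more, 125 higher and 264 lower. The median difference of all tested probe sets was -0.00208. Leaving out wild-type replicate 6 gave 564, leaving out wild-type replicate 5 gave 1042, and leaving out KAN1-GR replicate 1 or 3 gave 818 or 768. With the wild type of both days as reference it was 703, 360 higher and 343 lower.

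Across 33 gene lists, genes of jasmonate response, root hairs, sugar response and defensins were among those lower in KAN1-GR, and genes of the epidermis and stomata, cell division and the plastid genome among those higher. In all, 97 list entries were called, 46 higher and 51 lower, where 10.7% of all tested probe sets were called. The lists were chosen with earlier results of these data known, so a larger share called in a list is a description and no independent support. The number tested in each list is given in the plot of calls by gene list. The lists for salicylate and pathogen response (12 genes tested), heat shock (7), the circadian clock (11), nuclear photosynthesis (10), the shoot meristem (4), vascular tissue (12) and LITTLE ZIPPER (2) held no called gene.

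**Figure D1:**
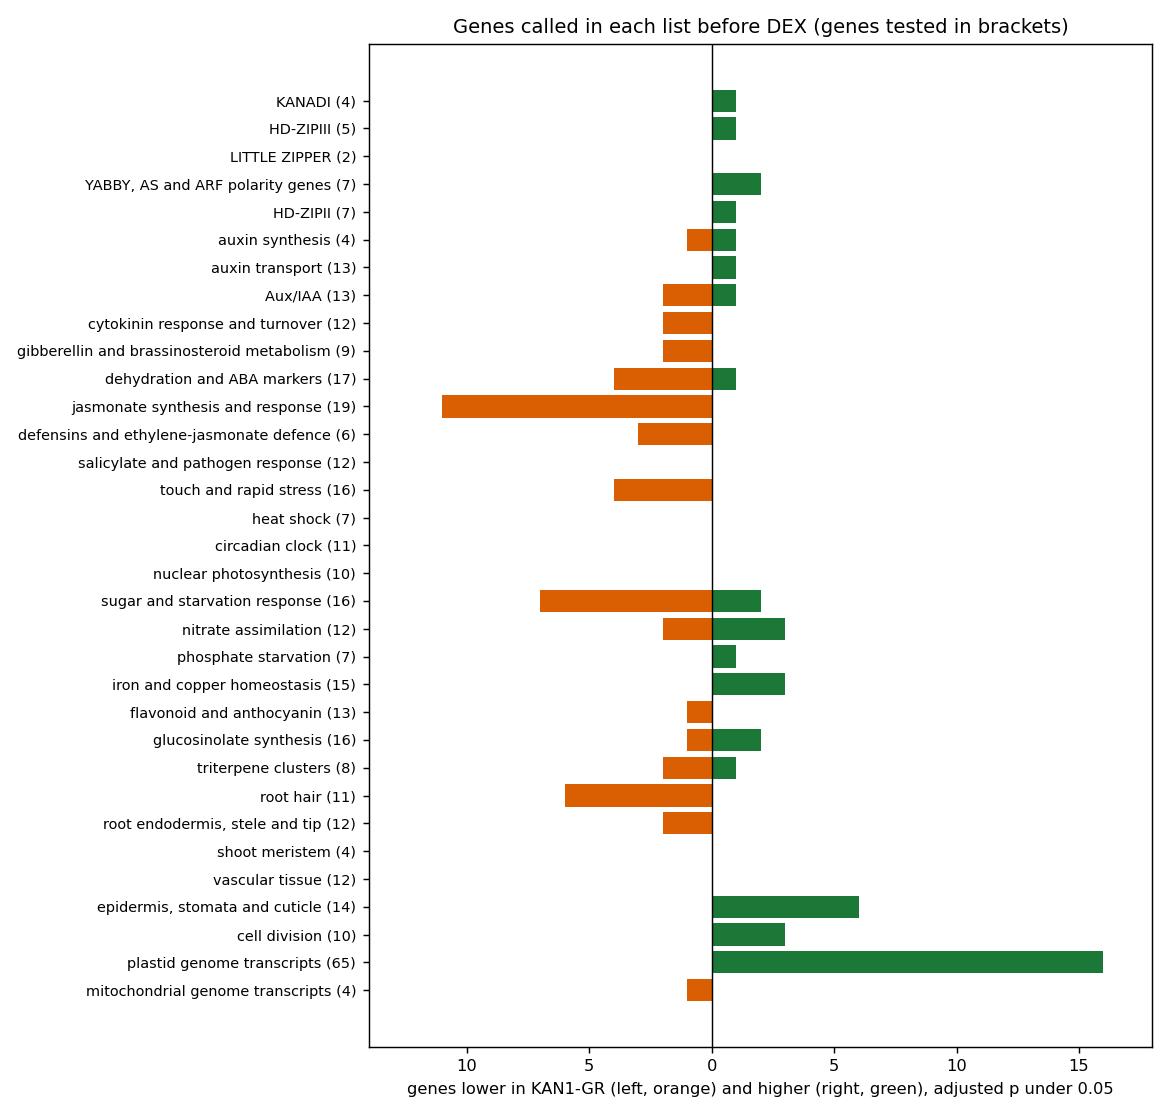
The bars count, for each gene list, the genes lower (left, orange) and higher (right, green) in KAN1-GR than in wild type at 0 min with an adjusted p under 0.05 (limma), with the number tested in brackets. Jasmonate genes reached 11 of 19 lower and plastid genome transcripts 16 of 65 higher, and 7 lists have no bar.

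The KAN1 probe set (AT5G16560), which reads the transgene as well as the plant's own gene, checked the labels. Wild-type replicates 4, 5 and 6 were at -0.01, 0.50 and 0.01, and KAN1-GR replicates 1, 2 and 3 at 8.91, 9.39 and 9.26. The groups lay far apart, with a difference of 9.02 ± 0.218 (SE, n = 3 against 3, adjusted p = 4.16e-25), or 518-fold. The difference was 8.99 at 30 min and 8.46 at 60 min. Quantile normalisation, which gave the centred values of all 42 arrays the same distribution, lowered the 0 min difference to 5.66. GR-REV, at 0.26 ± 0.218 against its own wild type, was not called for KAN1 (adjusted p = 0.478). The 5 tested genes on either side of KAN1 in locus order (RefSeq assembly TAIR10.1) were not called, and their differences ran from -0.355 for MYB43 to 0.503 for ZFN3.

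Several polarity genes and relatives were lower in KAN1-GR in the flasks with DEX but were not called before it. KAN2 (AT1G32240), the closest relative of KAN1 among the polarity genes, was at 0.21, 0.04 and -0.25 in wild type and at -0.01, 0.34 and 0.34 in KAN1-GR. These groups overlapped, with a difference of 0.22 ± 0.241 (adjusted p = 0.628), against -1.46 at 30 min and -0.87 at 60 min, both called. KAN3 (AT4G17695) gave 0.11 ± 0.232 at 0 min, -1.26 at 30 min and -1.89 at 60 min. AS2 (AT1G65620), an adaxial regulator, gave -0.11 ± 0.194, -0.84 and -1.37 at the 3 times. For HAT22 (AT4G37790), an HD-ZIPII factor gene, wild type was at 0.17, 0.29 and 0.06 and KAN1-GR at -0.05, -0.08 and -0.51 at 0 min. All KAN1-GR arrays lay below all wild-type arrays for HAT22, as they did for AS2. The HAT22 difference of -0.39 ± 0.213 was not called, and those of -2.63 and -2.28 at 30 and 60 min were. REV, at 0.09, -0.28 and -0.54, and YAB5, at 0.27, -0.01 and -0.72, were called lower at 60 min alone. The change between times was not tested here.

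Of the other polarity genes 3 were higher in KAN1-GR before DEX. PHABULOSA (PHB, AT2G34710), a class III adaxial factor gene, was at -0.48, -0.30 and -0.06 in wild type and at 0.64, 0.61 and 0.34 in KAN1-GR. The groups did not overlap, and the difference was 0.81 ± 0.159 (adjusted p = 0.00131). The abaxial YABBY genes FILAMENTOUS FLOWER (FIL, AT2G45190) and YAB3 (AT4G00180) were higher by 0.58 ± 0.134 (adjusted p = 0.00491) and 0.76 ± 0.16 (adjusted p = 0.00252). In the wild type of day 1, FIL stood at 0.55, 0.49 and 0.23 and YAB3 at 0.34, 0.33 and 0.30, and with the wild types of both days as reference neither call held (0.20 and 0.41). PHB stood at 0.54, 0.38 and 0.06 in the wild type of day 1, which overlaps the range of KAN1-GR. Against the wild types of both days PHB was at 0.51 and still called. At 30 min none of the 3 was called, and at 60 min FIL was lower by 0.50. The class III genes REV, PHV, CNA and ATHB8, between -0.01 and 0.34, were not called, nor were KAN4, ZPR1, ZPR3, AS1, YAB5, ARF3 and ARF4. By list, KANADI had 1 of 4 tested genes higher, KAN1 itself, HD-ZIPIII 1 of 5 and the YABBY, AS and ARF list 2 of 7, with none lower. Of all tested probe sets 4.94% were higher. HAT1 was the 1 called of 7 HD-ZIPII genes, higher by 0.51, and at 0.36 without wild-type replicate 6 it was not called, nor without KAN1-GR replicate 2 or 3.

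**Figure D2:**
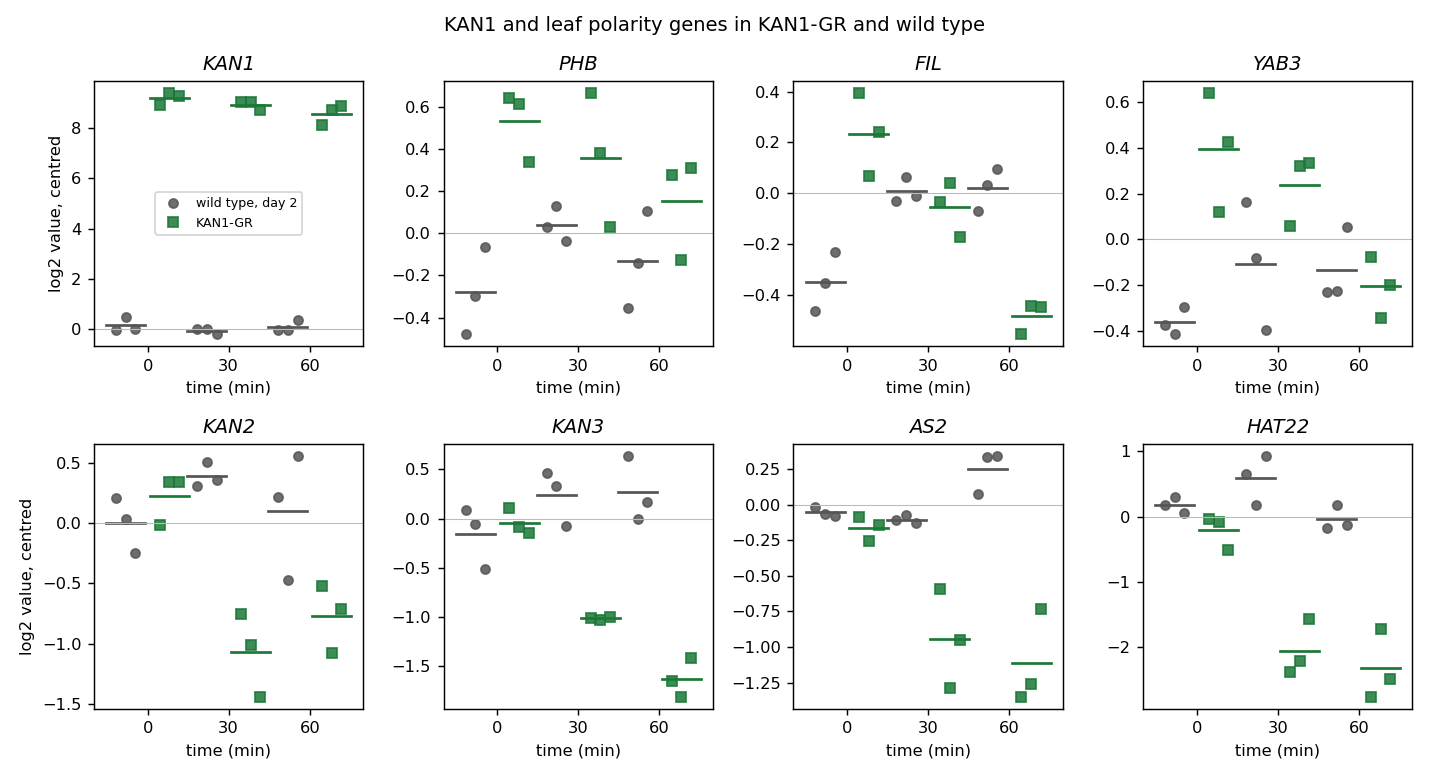
Each panel shows the log2 value (y axis, relative to wild type at 0 min) of a gene in each array of wild type of day 2 (grey circles) and KAN1-GR (green squares) at 0, 30 and 60 min (x axis), with bars at the group means of 3 arrays. KAN1 lies near 9 in KAN1-GR at every time, and KAN2, KAN3, AS2 and HAT22 are called lower at 30 and 60 min and not at 0 min.

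Of the genes higher in KAN1-GR before DEX, CYP716A2 (AT5G36140), a cytochrome P450 gene of triterpene metabolism, was the highest after KAN1. It was at -0.01, -0.01 and 0.01 in wild type and at 3.85, 4.35 and 3.59 in KAN1-GR, with no overlap. The difference was 3.93 ± 0.208 (adjusted p = 4.98e-15), 2.75 at 30 min and 3.29 at 60 min. In GR-REV it was -0.01. The 33 arrays without KAN1-GR lay between -0.0265 and 0.0854, and whether the probe set is above background there is not known, so the difference may be only a lower bound. A probe set shared by the nearby loci AT5G36110 (CYP716A1) and AT5G36130, which was looked up after its value was seen, was higher by 2.29 ± 0.321 (adjusted p = 2.68e-05), with wild type at -0.09, -0.03 and 0.05 and KAN1-GR at 2.37, 3.19 and 1.24. CCB3 (AT5G36120), which lies between these loci, was at -0.04 ± 0.104. Of the 10 tested single-gene neighbours of CYP716A2 only AT5G35970, at 0.61 ± 0.158, was called. Reads of near-identical family members by these probes cannot be told apart from their own.

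The position of the genes was looked at as well. The running median of 21 tested genes in locus order, a description with no test, stayed between -0.319 and 0.286 on the 5 chromosomes at 0 min. In GR-REV against its own wild type it reached 1.34 on chromosome 3.

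Further genes were called higher at 0, 30 and 60 min, among them 2 without a symbol. AT4G01390 was at -0.44, -0.16 and -0.63 in wild type and at 2.50, 2.70 and 1.8 in KAN1-GR, a difference of 2.74 ± 0.344 (adjusted p = 5.82e-06), followed by 2.76 at 30 min and 2.31 at 60 min. AT5G47600 was higher by 2.57, 2.13 and 2.50 at the 3 times. The same held for SQP1, a squalene monooxygenase gene of the sterol and triterpene route, at 1.4, 1.93 and 3.02, for COR413IM1, a cold-regulated gene of the plastid envelope, at 1.54, 1.86 and 2.85, and for PP2-A8, a phloem protein 2 gene, at 1.82, 1.38 and 1.79. Against the wild types of both days PP2-A8 was at 0.92 before DEX and not called.

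Jasmonate genes made up the list with the most genes lower in KAN1-GR. Of 19 tested, 11 were lower, against 5.78% of all tested probe sets, and none higher, with a median difference of -0.985. In 16 of the 19 all KAN1-GR arrays lay below all wild-type arrays (17.8% of all tested probe sets do so). Jasmonate is the wound and defence hormone, JAZ proteins repress its response, and their genes are switched on by it. The median of the list in wild-type replicates 4, 5 and 6 was 0.291, -0.0318 and 0.492, and in KAN1-GR replicates 1, 2 and 3 it was -0.76, -0.833 and -0.694. Leaving out single arrays gave 3 to 9 lower, 3 without wild-type replicate 6, 5 without any one of the KAN1-GR replicates, 8 without wild-type replicate 4 and 9 without replicate 5. With the wild types of both days as reference 7 were lower.

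NATA1 (AT2G39030), a jasmonate-induced acetyltransferase gene that acts on ornithine, had the largest difference of all called single genes in the downward direction. It was at 0.82, 0.74 and 1.93 in wild type and at -3.27, -4.61 and -4.63 in KAN1-GR, a difference of -5.33 ± 1.02 (adjusted p = 0.00098). TAT3 (AT2G24850), a tyrosine aminotransferase gene, was at 0.25, -0.25 and 0.41 in wild type and at -3.26, -3.40 and -2.78 in KAN1-GR, a difference of -3.28 ± 0.52 (adjusted p = 0.000127). For neither gene did these groups overlap. The wild type of day 1, at -3.37, -0.74 and -1.76 for NATA1, reached into the KAN1-GR range. JAZ5, JAZ6 and JAZ9 were lower by 2.08, 0.88 and 1.94 (SE 0.589, 0.247 and 0.456). LOX2, the chloroplast lipoxygenase gene at the start of jasmonate synthesis, was at 0.33, 0.18 and 0.12 against -0.79, -0.96 and -0.69, a difference of -1.03 ± 0.263 (adjusted p = 0.0111), and -0.66 and not called against the wild types of both days. Without wild-type replicate 6, JAZ5, JAZ6 and JAZ9 were at -1.87, -0.84 and -1.63 and not called. JAZ5 was also lost without KAN1-GR replicate 2 or 3 and JAZ6 without KAN1-GR replicate 1 or 2.

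The jasmonate difference was smaller in the later flasks. At 30 min 2 of the 19 were lower and at 60 min 1, with medians of -0.449 and -0.178. Of all tested probe sets 7.93% and 9.59% were lower at these times. TAT3 was at -1.94 at 30 min, still called, and at -0.91 at 60 min, not called. NATA1 was at -2.20 and -2.33, neither called, with wild type at -1.23, -0.65 and 0.92 and KAN1-GR at -0.56, -3.33 and -3.68 at 30 min, so that the groups overlapped. JAZ6 alone was lower at each time, at -2.61 and -2.87 in the later flasks. Whether the 0 min difference itself differs from the later ones was not tested.

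Some defensin and touch-response genes were lower as well, 3 of 6 and 4 of 16 tested against 5.78% of all probe sets. PDF1.4 (AT1G19610), a defensin-family gene, was at 0.86, 0.97 and 2.31 in wild type and at -2.98, -2.76 and -2.99 in KAN1-GR, a difference of -4.29 ± 0.613 (adjusted p = 3.59e-05) that was -1.91 at 30 min and -2.38 at 60 min, both called. PDF1.2, a jasmonate and ethylene marker, was lower by 3.40 ± 0.843 and its copy PDF1.2b by 2.16 ± 0.619, and the probes of these near-identical genes may share transcripts. Without wild-type replicate 6 they were at -3.22 and -2.08 and not called, and PDF1.2b was also lost without wild-type replicate 4 or KAN1-GR replicate 2 or 3. At 30 min PDF1.2 was at -1.50, -1.11 and 0.66 in wild type and at 1.43, -1.74 and -0.48 in KAN1-GR, so the groups overlapped. At 60 min they overlapped too, at 1.09, 1.17 and -1.19 against -1.31, -1.95 and -1.03. The defensin list had none higher before DEX, and 1 lower without wild-type replicate 6 or with the wild types of both days. Its median was 0.0898 at 30 min and -0.967 at 60 min, with 2 lower at each time. The shares of all tested probe sets lower at 30 and 60 min were 7.93% and 9.59%. In the touch and rapid stress list none was higher, and the median was -0.478 (2 lower without any one of wild-type replicates 5 and 6 and KAN1-GR replicates 1 and 3). WRKY53, a transcription factor gene of senescence and defence, was at 0.07, -0.37 and -0.28 against -2.04, -1.26 and -1.67, a difference of -1.46 ± 0.281 (adjusted p = 0.00105), and stayed lower at -1.93 and -1.50. ZAT12, a stress zinc-finger gene, was lower by 1.51 ± 0.276 before DEX and at 0.12 and -0.05 afterwards. ERF6 and TCH4, at -0.91 ± 0.283 and -0.85 ± 0.266, were the other 2. TCH4 was not called in any of the 6 fits with 1 array left out, at -0.90 to -0.77, and ERF6 in 4 of them, at -1.01 to -0.81.

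GR-REV differed from its wild type in the opposite direction in the jasmonate and touch lists. There, 17 of 19 jasmonate genes and 14 of 16 touch genes were higher and none lower, with medians of 1.52 and 1.21. Of all tested probe sets 7.77% were higher in GR-REV. The difference between the lines, each against the wild type of its day, was tested, and it was lower in KAN1-GR for 18 of the 19 jasmonate genes and 13 of the 16 touch genes (7.34% of all tested probe sets were so). For TAT3, GR-REV was at 3.44, 3.94 and 2.55 and its wild type at -1.26, 0.68 and -1.1, while KAN1-GR lay below every array of either wild type. The lines were grown on different days, so line and day cannot be told apart in values set across them.

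**Figure D3:**
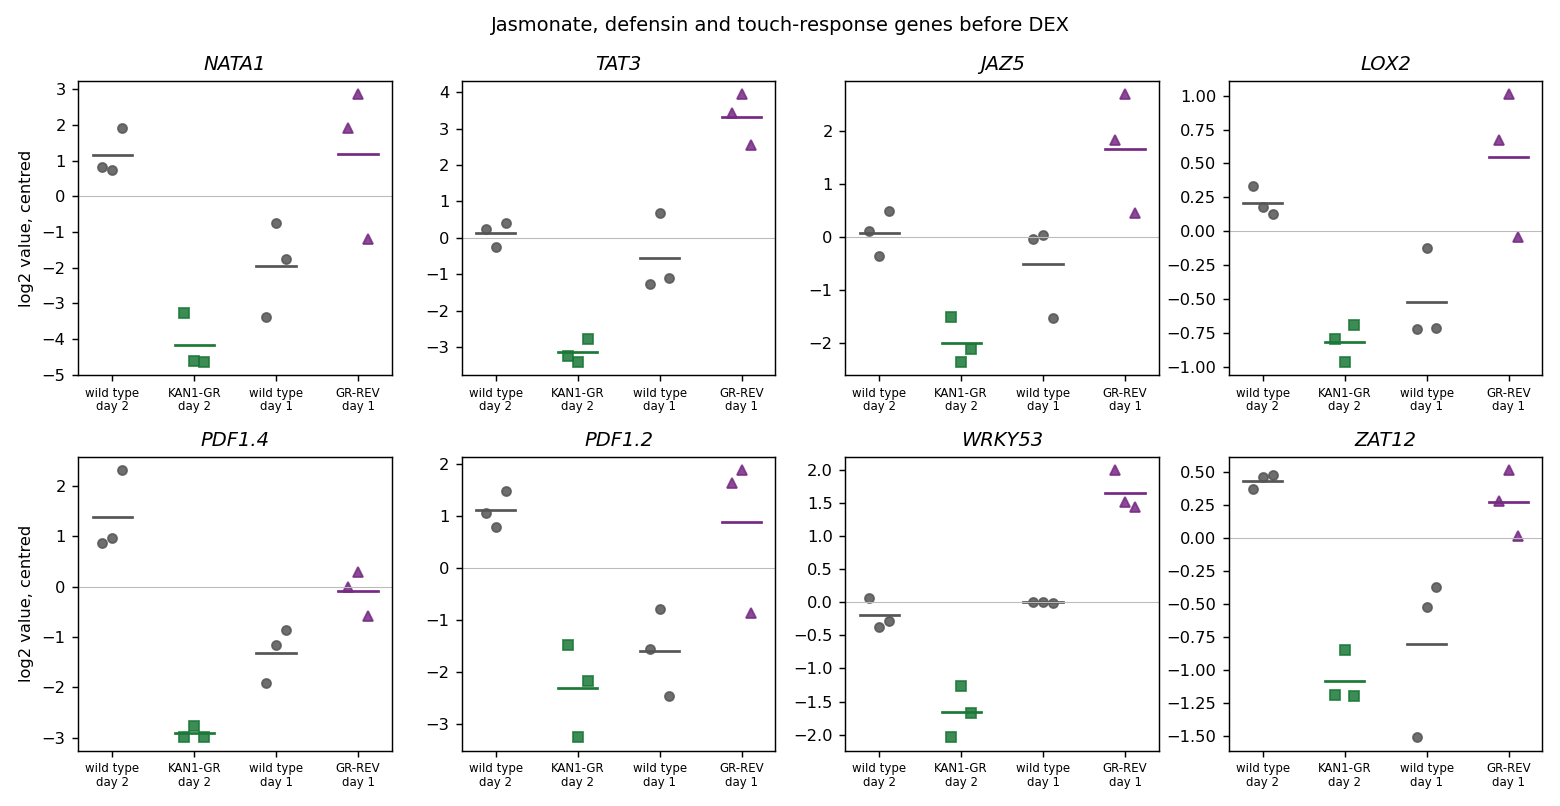
Each panel shows the log2 value (y axis) of a jasmonate, defensin or touch-response gene in each array at 0 min of the wild type of day 2, KAN1-GR, the wild type of day 1 and GR-REV, with bars at the means of 3 arrays. KAN1-GR arrays lie below all arrays of the day 2 wild type in each panel, and the wild types of the 2 days differ from each other, as for PDF1.4 at 0.86 to 2.31 on day 2 and -1.91 to -0.86 on day 1.

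Of the genes of dehydration and abscisic acid (ABA) response, some were lower. RD20 (AT2G33380), a caleosin gene induced by drought, was at 0.08, 0.13 and 1.41 in wild type and at -3.48, -3.88 and -3.98 in KAN1-GR, a difference of -4.32 ± 0.962 (adjusted p = 0.00393). The wild type of day 1, at -3.76, -0.08 and -1.96, reached into the KAN1-GR range. At 30 min RD20 was at -1.14, -0.34 and 1.25 in wild type and at -1.52, -2.74 and -4.54 in KAN1-GR. At 60 min the groups overlapped, at -0.36, 0.74 and -0.77 against -0.53, -1.28 and -1. RD26, a NAC factor gene of the ABA response, was lower by 1.70 ± 0.228 (adjusted p = 1.57e-05) and stayed lower, at -1.27 and -1.50. HAI1, an ABA-induced phosphatase gene, was lower by 1.35 ± 0.446 before DEX and higher by 1.71 and 2.94 at 30 and 60 min. Its 0 min call was lost in 5 of the 6 fits with 1 array left out, at -1.75 to -0.86, and with both days as reference (-0.74). ABF3, an ABA-response factor gene and the only one higher, was at 0.49 ± 0.149, and was not called without wild-type replicate 4 or 6 or KAN1-GR replicate 2 or 3 (0.39 without wild-type replicate 6). COR47, a dehydrin gene, was the other one lower, and was lost in 4 of the 6 such fits, at -0.63 to -0.45. In all 4 of 17 were lower and 1 was higher, against 5.78% and 4.94% of all tested probe sets. The lower count was 2 without any one of wild-type replicates 5 and 6 and KAN1-GR replicates 1 and 3. It was also 2 with the wild types of both days as reference.

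Genes that respond to sugar formed a further group. Of 16 tested, 7 were lower in KAN1-GR and 2 higher, against 5.78% and 4.94% of all tested probe sets, with a median of -0.671. At 30 min 8 were lower and 2 higher and at 60 min 6 and 3. Of all tested probe sets 7.93% were lower and 6.12% higher at 30 min, and 9.59% and 8.38% at 60 min. The class II trehalose-phosphate synthase-like genes TPS8, TPS9, TPS10 and TPS11, which rise when sugar is short, were all lower. TPS9 (AT1G23870) was at 0.21, 0.85 and 1.04 in wild type and at -1.11, -0.50 and -0.73 in KAN1-GR, a difference of -1.48 ± 0.203 (adjusted p = 2.07e-05) that was -1.58 and -1.11 later. TPS8, TPS10 and TPS11 were at -1.39, -1.34 and -1.56 (SE 0.274, 0.207 and 0.305). DIN11, a dark-induced gene outside the list, was lower by 3.51 ± 0.526. Leaving out single arrays gave 4 to 7 lower and 2 or 3 higher, with 4 lower without wild-type replicate 5 or 6 or KAN1-GR replicate 1 or 3. With the wild types of both days as reference 3 were lower and 2 higher.

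The 2 higher genes of that list act in starch synthesis and sugar-phosphate transport. APL3 (AT4G39210), a large subunit of ADP-glucose pyrophosphorylase, was at -0.33, -0.77 and -1.15 in wild type and at 1.52, 1.17 and 1.22 in KAN1-GR, a difference of 2.05 ± 0.297 (adjusted p = 4.1e-05), then 1.69 and 2.09. GPT2, a plastid glucose-6-phosphate carrier gene, was higher by 2.75 ± 0.47, then by 1.42 and 1.61. GBSS1, the granule-bound starch synthase gene, was higher by 2.44 ± 0.395, and AMY1, an alpha-amylase gene, lower by 3.26 ± 0.668. Against the wild types of both days AMY1 and TPS8 were at -1.83 and -0.75 and not called. GBSS1 and GPT2 were at 1.3 and 1.41 there and still called. In the wild type of day 1 GBSS1 was at 1, 1.73 and 0.705, against 1.29, 0.903 and 1.7 in KAN1-GR. GPT2 was at 1.59, 1.58 and 0.36 on day 1, against 1.27, 0.862 and 1.63 in KAN1-GR. For both genes the wild type of day 1 thus overlapped the range of KAN1-GR. BXL3, a beta-xylosidase gene, was higher by 3.12 ± 0.499 before DEX and not called later, at 0.35 and 1.26. In the wild type of day 1 BXL3 was at 0.264, 0.707 and 2.04, which overlaps the 1.84, 1.83 and 1.38 of KAN1-GR. APL3 and GPT2 were also higher in GR-REV, by 1.37 and 2.23. Wild-type replicate 4 lay nearest to KAN1-GR in TPS9, APL3 and GPT2.

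Nitrate transporters differed in both directions. NRT1.1 (AT1G12110), the dual-affinity nitrate transporter and sensor gene, was at 0.28, 0.04 and -0.54 in wild type and at -1.78, -1.52 and -1.83 in KAN1-GR, a difference of -1.64 ± 0.198 (adjusted p = 3.38e-06) that was -2.17 and -2.10 later. NRT2.1, a high-affinity transporter gene, was higher by 1.59 ± 0.358, and its partner NRT3.1 by 0.83 ± 0.248. G6PD3, a plastid dehydrogenase gene induced by nitrate, was higher by 0.94 ± 0.271, and NRT1.8, which takes nitrate out of the xylem, was lower by 1.23 ± 0.397. These were the 5 called of 12 tested, 3 higher and 2 lower, where 10.7% of all tested probe sets were called. Without wild-type replicate 6 none was higher and 1 was lower, and without KAN1-GR replicate 1 or 3, 1 was higher. Against the wild types of both days NRT2.1, NRT3.1 and G6PD3 were at 0.91, 0.16 and 0.39 and not called. NRT1.1 and NRT1.8, at -1.62 each, were called there.

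Of the iron-deficiency genes 3 were higher in KAN1-GR, but not in every array. PYE (AT3G47640), a bHLH regulator of the iron response, was at -0.38, -1.23 and -2.44 in wild type and at 0.80, -0.50 and 0.55 in KAN1-GR. KAN1-GR replicate 2 lay within the wild-type range, and the difference was 1.63 ± 0.368 (adjusted p = 0.00435). NAS4, a nicotianamine synthase gene, was higher by 2.24 ± 0.573 and OPT3, a carrier of iron in the phloem, by 1.19 ± 0.305, with the same replicate low. The 3 were the called genes of 15 in the iron and copper list, where 10.7% of all tested probe sets were called. Without wild-type replicate 6, with the 6 arrays fitted alone, or with the wild types of both days, none was called, without KAN1-GR replicate 1 or 3 the count was 1, without wild-type replicate 4 it was 5 higher and 2 lower, and without KAN1-GR replicate 2 it was 7 higher and 2 lower. IRT2 (AT4G19680), a root iron transporter gene outside the list, went the other way, at 1.29, 1.88 and 1.42 against -1.4, -0.57 and -1.95, a difference of -2.84 ± 0.372 (adjusted p = 1.24e-05), then -1.97 and -2.08.

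Root hair genes were lower in KAN1-GR before DEX and in both later sets of flasks. RSL4 (AT1G27740), the bHLH factor that drives root hair growth, was at 0.14, 0.97 and 0.71 in wild type and at -1.33, -1.77 and -1.84 in KAN1-GR. The groups did not overlap, and the difference was -2.25 ± 0.297 (adjusted p = 1.3e-05), then -1.43 and -1.84. EXP7, an expansin gene of root hair cells, was lower by 1.56 ± 0.292, COW1, a lipid transfer protein gene needed for hair growth, by 1.39 ± 0.282, and PRP1, a cell wall protein gene, by 2.05 ± 0.607. Of 11 tested, 6 were lower, against 5.78% of all tested probe sets, and none higher, with a median of -1.39. The later counts were 7 and 6 lower with medians of -1.18 and -1.07, against 7.93% and 9.59% of all tested probe sets. GR-REV had 7 of the 11 lower, against 8.08% of all tested probe sets, with a median of -1.05. The difference between the lines was called for 1, RSL4.

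Counts for root hair genes fell to 3 without any one of wild-type replicates 5 and 6 and KAN1-GR replicates 1 and 3, and to 1 with the wild types of both days as reference. RSL4 was called under each of these. Other root markers did not move together: of 12 genes of the endodermis, stele and root tip 2 were lower and none higher, with a median of -0.0796. These 2, BGLU45 (-3.92 ± 0.738) and BGLU46 (-1.04 ± 0.228), encode glucosidases of lignin precursors. With the wild types of both days as reference they were at -2.06 and -0.64 and not called, and BGLU45 in the wild type of day 1 was at -2.79, -2.64 and -0.93, against -2.71, -1.48 and -2.75 in KAN1-GR.

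Genes of the epidermis and stomata were higher. TMM (AT1G80080), a receptor-like protein gene of stomatal spacing, was at -0.71, -0.36 and -0.90 in wild type and at 0.86, 0.55 and 1.3 in KAN1-GR, a difference of 1.56 ± 0.288 (adjusted p = 0.000728) with no overlap. The epidermal identity factor genes ATML1 and PDF2 were higher by 0.48 ± 0.124 and 0.57 ± 0.154. The stomatal peptide genes EPF1 and EPF2 were higher by 0.62 ± 0.19 and 1.05 ± 0.349, and the protease gene SDD1 by 0.81 ± 0.26. These are 6 of 14 tested, against 4.94% of all tested probe sets, with none lower and a median of 0.317. Leaving out single arrays gave 2 to 4, with 2 without wild-type replicate 6 or KAN1-GR replicate 1 and 3 without wild-type replicate 5 or KAN1-GR replicate 3. With the wild types of both days 1 was higher and 1 lower. At 30 min 1 was higher and 2 lower, at 60 min none and 2, and TMM was at 0.21 and 0.17. Of all tested probe sets 6.12% were higher and 7.93% lower at 30 min, and 8.38% and 9.59% at 60 min. In the wild type of day 1 TMM was between 0.36 and 0.92, which overlaps the range of KAN1-GR.

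Cell division genes were higher in 3 of 10, against 4.94% of all tested probe sets, with a median of 0.402. CYCA1;1, CYCD3;1 and PCNA1 were at 0.76 ± 0.235, 0.46 ± 0.145 and 0.42 ± 0.135. None of the 3 calls held without wild-type replicate 5 or 6, without KAN1-GR replicate 1 or 3, or with the wild types of both days as reference.

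Transcripts of the plastid genome were higher in 16 of 65 tested, against 4.94% of all tested probe sets, with none lower and a median of 0.442. psbC, which encodes a photosystem II antenna protein, was at -0.08, -0.02 and 0.02 in wild type and at 1.1, 1.2 and 1.70 in KAN1-GR, a difference of 1.36 ± 0.239 (adjusted p = 0.000461). ndhK, of the plastid NDH complex, was higher by 2.46 ± 0.446, petL, of the cytochrome complex, by 1.27 ± 0.241, and psbK by 1.06 ± 0.196. At 30 min 2 of the 65 were higher, and at 60 min 1 was higher and 6 lower. Of all tested probe sets 6.12% were higher at 30 min, and 8.38% were higher and 9.59% lower at 60 min. Leaving out single arrays gave 8 to 13 higher, 8 without KAN1-GR replicate 3 and 10 without any one of the wild-type arrays. With the wild types of both days as reference 35 were higher. Of the nuclear photosynthesis genes, none of 10 was called, and their median was 0.0121. The part of plastid number or RNA preparation in these values was not tested.

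**Figure D4:**
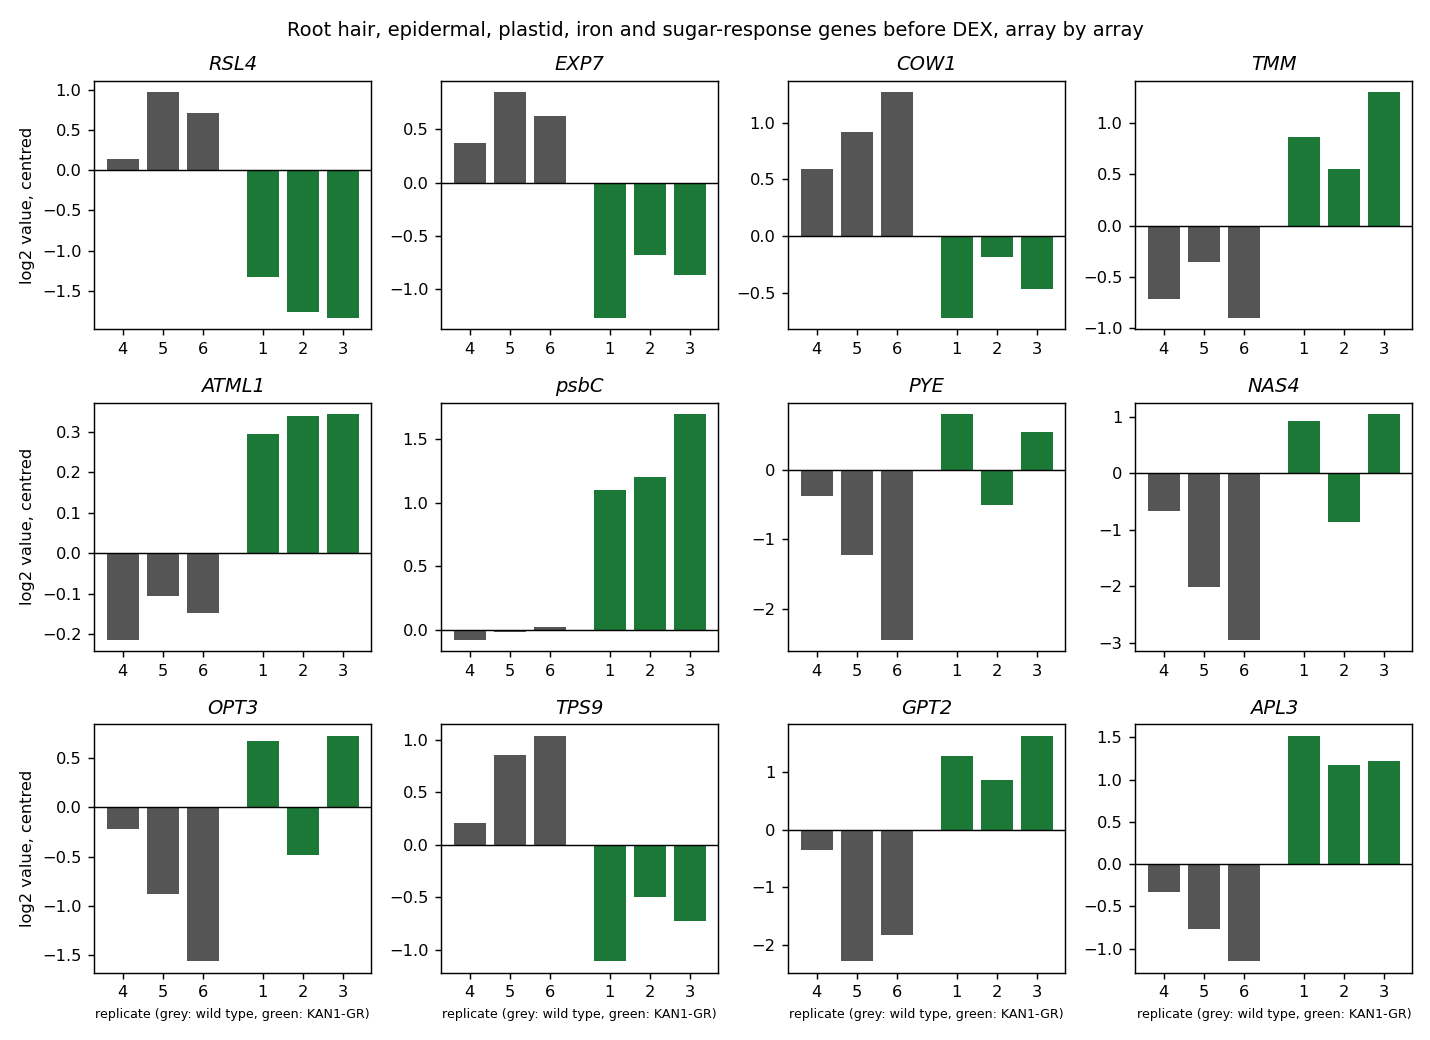
Bars give the log2 value (y axis, from 0, the wild-type median before DEX) in wild-type replicates 4 to 6 (grey) and KAN1-GR replicates 1 to 3 (green) for root hair (RSL4, EXP7, COW1), epidermal (TMM, ATML1), plastid (psbC), iron (PYE, NAS4, OPT3) and sugar-response (TPS9, GPT2, APL3) genes. In the 3 iron genes KAN1-GR replicate 2 is on the wild-type side of 0 and wild-type replicate 6 is the lowest.

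Of 51 tested genes in the auxin, cytokinin, gibberellin and brassinosteroid lists 10 were called (19.6%, against 10.7% of all tested probe sets), 3 higher and 7 lower, and most of these calls were lost in at least 1 fit with an array left out. ROTUNDIFOLIA3 (ROT3, AT4G36380), a cytochrome P450 gene of brassinosteroid synthesis, was at 0.11, 0.21 and 0.14 in wild type and at -1.08, -0.89 and -1.14 in KAN1-GR. The groups did not overlap, and the difference of -1.19 ± 0.123 (adjusted p = 1.7e-07) was followed by -1.71 and -1.8. CPD, which acts in the same route, was lower by 0.36 ± 0.103, and these were the 2 called of 9 tested gibberellin and brassinosteroid genes. Of 13 Aux/IAA genes, which encode repressors of auxin response, IAA2 and IAA28 were lower by 0.99 ± 0.245 and 0.66 ± 0.217 and IAA12 higher by 0.54 ± 0.178. In auxin synthesis YUC8 was lower by 0.58 ± 0.15 and TAA1 higher by 0.54 ± 0.168, of 4 tested. The auxin influx carrier gene LAX3 was higher by 0.53 ± 0.134, 1 of 13 transport genes. The type-A response regulator genes ARR8 and ARR9, which damp cytokinin signalling, were lower by 0.74 ± 0.212 and 0.62 ± 0.148, 2 of 12 cytokinin genes. With 1 array left out, IAA28, IAA12 and TAA1 were not called in 5 of 6 fits and CPD and ARR8 in 4, and without wild-type replicate 6 these 5 lay at -0.66, 0.46, 0.40, -0.23 and -0.74. IAA2 and LAX3 were not called without that replicate, at -0.89 and 0.44, and YUC8 was not called without wild-type replicate 5. ROT3 and ARR9 were called whichever array was left out. Against the wild types of both days IAA2, IAA28, IAA12, YUC8 and ARR8 were at -0.61, -0.29, 0.20, -0.31 and -0.36 and not called. ROT3, CPD, TAA1, LAX3 and ARR9 were called there. MYB12, a flavonol regulator, was lower by 1.00 ± 0.17 and was the 1 called of 13 flavonoid genes, though at -0.34 it was not called against the wild types of both days.

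The later flasks of day 2 share no array with the 0 min comparison, and they show which differences recurred, with DEX now present. They share its day, so recurrence is no check across days. Without wild-type replicate 6 of its time, the count of called probe sets was 564 at 0 min and 1292 at 30 min. Each was the lowest with 1 array left out, while at 60 min it was 2572 and not the lowest. The part of this replicate in the recurrence was not tested. Of the 797 probe sets higher before DEX, 263 (33%) were also called higher at 30 min, which is 26.6% of the 987 higher there (6.12% of all tested), and 19 were lower. At 60 min 246 (30.9%) were higher, 18.2% of the 1351 higher there (8.38%), and 38 were lower. Of the 933 lower before DEX, 376 (40.3%) were lower at 30 min, 29.4% of the 1279 lower there (7.93%), and 322 (34.5%) at 60 min, 20.8% of the 1547 (9.59%). Called at 0, 30 and 60 min in the same direction were 180 probe sets higher (1.12%) and 249 lower (1.54%). The signs agreed for 87.1% and 91.9% of the higher and lower probe sets at 30 min, where 52.1% and 47.9% of all tested had those signs, and for 80.4% and 85.1% at 60 min, against 49% and 51%. The median of the 797 was 0.618 before DEX and 0.343 and 0.281 later, and that of the 933 was -0.722, then -0.434 and -0.356. The members were chosen by their 0 min values, so these sizes are a description and their decline was not tested.

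Among the 249 were GAT1_2.1, a glutamine amidotransferase gene, at -3.18, -2.22 and -2.98, AT1G19530 at -3.38, -3.31 and -2.35 (-1.71 and not called before DEX against the wild types of both days), and AT4G07820 at -3.47, -2.98 and -2.33. AT4G15700 was lower by 1.82 before DEX and by 2.48 and 3.13 later. AT3G07350 was at -1.81, -2.22 and -2.66.

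**Figure D5:**
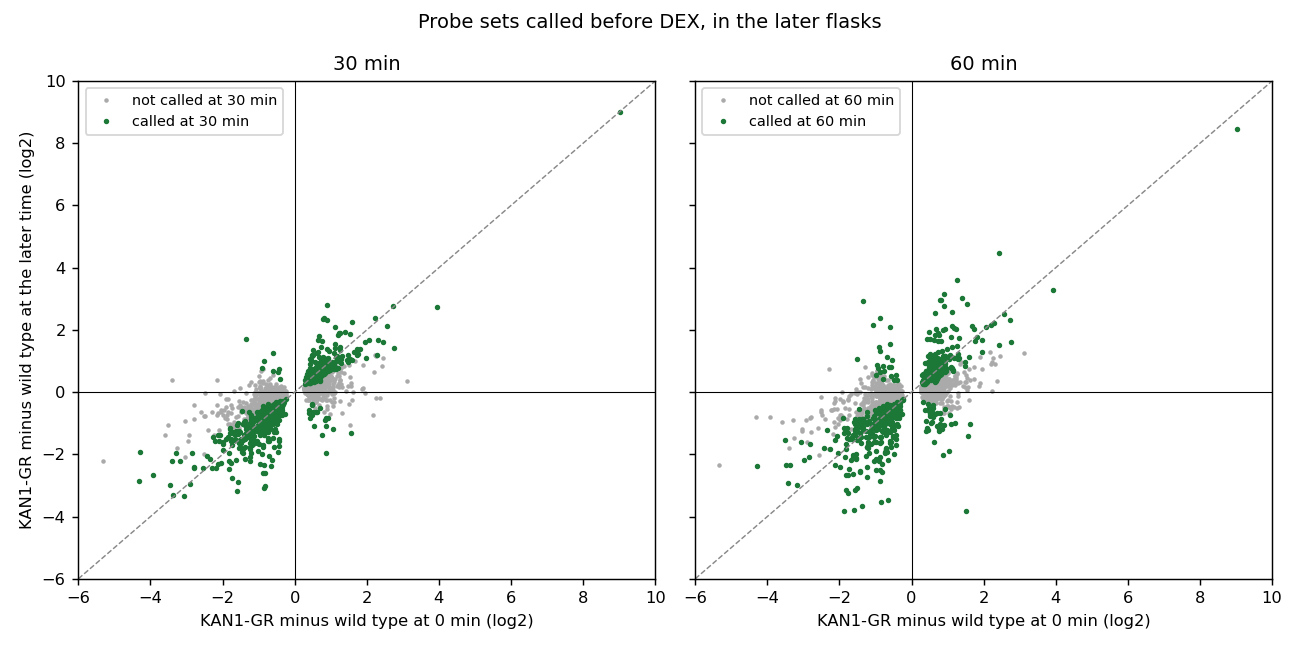
Each point is 1 of the 1730 probe sets called at 0 min, with its difference between KAN1-GR and wild type at 0 min (x axis, log2) against that at 30 min (left) or 60 min (right, y axis, log2), green where also called at the later time, and a dashed line of equal values. Most points keep their sign, and KAN1 is the point near 9 in both panels.

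The other fusion line showed no single direction of overlap. Of the 797 probe sets higher in KAN1-GR, 47 (5.9%) were also higher in GR-REV against its own wild type, 3.75% of the 1254 higher there (7.77% of all tested), and 80 (10%) were lower. Of the 933 lower in KAN1-GR, 137 (14.7%) were lower in GR-REV, 10.5% of the 1304 lower there (8.08%), and 129 (13.8%) were higher. The signs agreed for 36.9% of the higher and 57.1% of the lower probe sets, where 48.1% and 51.9% of all tested had those signs. Root hair genes were lower in both lines and jasmonate genes were lower in one and higher in the other. The difference between the lines passed the threshold for 2415 probe sets (15%), 1231 higher (7.63%) and 1184 lower in KAN1-GR.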

How the data were processed

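RNA of 42 whole-seedling samples was measured on ATH1 arrays, 3 in each of 14 groups. The deposited values are log2 GCRMA values per the submitters' processing notes and the values' range (the GCRMA version is not given in the sources used here), and the authors' table sets each probe set to a median of 0 over the 6 wild-type arrays at 0 min. A second deposited table holds the same values (largest difference 0) and the authors' other column, 2-way ANOVA p-values, marked not available for 6646 probe sets. The 16129 probe sets with such a p-value that are not controls were tested, and 6617 were not.

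Group means of all 42 arrays were fitted with limma 3.58.1 in R 4.3.3 (lmFit and eBayes, 28 residual degrees of freedom, prior 3.92), adjusted by Benjamini-Hochberg at 0.05. Precision is set by 3 arrays a group. Flasks were separate per the labels. A single gene was given for 15203 tested probe sets, several for 710 and none for 216, and 15156 matched RefSeq TAIR10.1, with plastid genes named through the platform's gene numbers. Statistics were tested on simulated data. The genes and the 33 lists were chosen with earlier results of these data known. Named genes were the polarity genes, the 12 highest and 12 lowest differences, up to 6 genes of each other list by adjusted p, the 10 highest and 10 lowest of those called at 0, 30 and 60 min, the 5 genes on either side of KAN1 and the 6 highest and 6 lowest differences between lines. Alternatives changed the normalisation, the spread, the arrays fitted, the reference and single replicates. A planned search of promoter letters was not run, since no sequence table was used here.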

Additional observations from a re-analysis of the deposited data

Results flagged for a closer look

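The difference from wild type at 0 min differed between KAN1-GR and GR-REV for 64 of the 108 genes given here, each by limma's test of the difference itself (adjusted p under 0.05), where 15% of all tested probe sets passed. Many of the 108 were chosen for large differences at 0 min or between the lines, so the count follows from that choice. The lines were grown on different days, each with its own wild type, so line and day cannot be told apart.

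Lower in KAN1-GR relative to GR-REV, the log2 difference lay for NATA1 at -8.48, RD20 at -7.31, TAT3 at -7.15, JAL23 at -6.17, PDF1.2 at -5.88, AT1G10585 at -5.82, PDF1.4 at -5.51 and AT4G19430 at -5.25. Next came DIN11 at -5.09, AMY1 at -4.91, JAZ5 at -4.24, PDF1.2b at -4.06, REV at -4.01, AT5G05600 at -3.84, AT4G07820 at -3.74 and BGLU45 at -3.7. Then followed GAT1_2.1 at -3.66, JAZ9 at -3.31, NRT1.8 at -3.29, AT1G19530 at -3.13, WRKY53 at -3.11, IRT2 at -2.6, ZAT12 at -2.59 and TCH4 at -2.4. These were followed by LOX2 at -2.1, ERF6 at -2.05, NRT1.1 at -1.84, JAZ6 at -1.82, AT4G15700 at -1.81, AT3G07350 at -1.67, RD26 at -1.56 and RSL4 at -1.32. The last were IAA2 at -1.03, TPS9 at -0.98, MYB12 at -0.96 and ROT3 at -0.93.

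Higher in KAN1-GR relative to GR-REV, the difference lay for KAN1 at 8.76, AT4G33720 at 6.1, CYP716A2 at 3.94 and AT4G01390 at 3.88. AT1G64590 was at 3.61, BXL3 at 3.46, PP2-A8 at 2.69 and ndhK at 2.63. Next came AT4G28940 at 2.52, psbC at 2.31, GBSS1 at 1.97, AT5G47600 at 1.93, COR413IM1 at 1.73, PYE at 1.63, HAT1 at 1.58 and petL at 1.54. Then followed TMM at 1.43, SDD1 at 1.33, psbK at 1.28, G6PD3 at 1.17, PHB at 1.13, LAX3 at 1, EPF1 at 0.95 and ATML1 at 0.82. These were followed by PDF2 at 0.8, IAA12 at 0.8, ABF3 at 0.73 and FIL at 0.61. Among the higher genes, AT4G33720 and AT1G64590 were not called at 0 min in KAN1-GR against its own wild type, at 2.77 and 0.52.

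KAN1 and REV are the genes of the fusions themselves. No cause was tested for the others.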

How the results depend on the processing

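The count of 1730 probe sets at 0 min was 3933 under quantile normalisation of the centred values and 4308 with array weights. It was 389 with a 2-fold minimum and 703 against the wild type of both days. Leaving out single arrays gave 564 to 1700 at 0 min, 1292 (without wild-type replicate 6) to 2313 at 30 min, with 1505 there without KAN1-GR replicate 3, 2037 to 2643 at 60 min, 1857 to 2458 for GR-REV and 1742 to 2503 for the difference between lines. Quantile normalisation gave 1211 for GR-REV, 3853 for the difference between lines and 148 for the gene lists. The cause was not tested. Of 108 genes, 91 were called, 37 of them under each of 17 alternatives and 52 whichever array was left out, and none of the 91 changed sign. Uncalled genes that changed sign were KAN3 (-0.03 with both days, and -0.06 to 0.24 with arrays left out), KAN4 (0.08), REV (-0.13) and AS1 (-0.01) with both days, ARF3 (-0.17 to 0.02 with arrays left out) and PHV (0.01 under quantile normalisation, 0 with array centring, 0.11 with both days and -0.08 to 0.07 with arrays left out). Median centring, the other spread settings, all probe sets, day 2 alone and the 6 arrays alone moved the 0 min count to between 1366 and 1875. No paired analysis was possible because wild type has replicates 4 to 6 and KAN1-GR 1 to 3, which share no number.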

Other observations

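A few genes of other lists also differed, where 10.7% of all tested probe sets were called. In the triterpene clusters 1 of 8 tested genes was higher, CYP716A2, and 2 were lower. These were the marneral pathway genes MRN1 (-1.50 ± 0.412) and CYP71A16 (-1.28 ± 0.395), which lay at -1.45 and -1.31 in GR-REV. Of 16 glucosinolate genes, the regulator genes MYB28 (0.57 ± 0.187) and MYB34 (0.49 ± 0.141) were higher and MAM1, of methionine chain elongation, was lower (-0.61 ± 0.195). Of 7 phosphate starvation genes SQD1, of sulfolipid synthesis, was higher (0.51 ± 0.159).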
